A study of Mus musculus with 2 samples.

Results

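Genes linked to dentate neurogenesis and proneural genes were taken by symbol and gene identifier from the gene tables. They were Hopx, Eomes, Neurog2, Igfbpl1, Neurod1, Neurod2, Neurod6, Bhlhe22 and Tbr1, and several are also made by cells outside the dentate lineage. All 9 were found among 55536 annotated genes. The tissue was hippocampus from female B6CASTF1/J mice, first-generation hybrids of a laboratory strain and a wild-derived strain, at 10 days of age, and total RNA was sequenced after removal of ribosomal RNA. The 2 libraries were biological replicates 1 and 2 of 1 group, each from 300 ng of RNA of a pool of 3 mice, and the animals of the pools carry different numbers. No treatment, altered allele or second condition is named in the labels. No hippocampal layer is named, although the labels use that word, and a pool hides the spread between its animals.

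New granule neurons of the dentate gyrus arise from radial glia-like stem cells, which give intermediate progenitors, then neuroblasts, then young granule cells. Proneural factors of the basic helix-loop-helix class, called bHLH factors, pair with E proteins and bind short DNA words called E-boxes. Id proteins occupy the E proteins and Hes proteins repress proneural genes, so both hold cells back from becoming neurons. In the mouse, the second postnatal week is a time when the granule cell layer is still being built.

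The neuronal bHLH genes Neurod6, Neurod2 and Bhlhe22 stood highest and the intermediate progenitor genes Eomes and Neurog2 lowest. The stem cell gene Hopx came next after those 3, above Igfbpl1, Neurod1 and Tbr1. Levels are TPM, which divides reads by transcript length and scales the sum of a library to a fixed total. Each gene has its level in replicate 1 and then replicate 2, from the table estimated by alignment, or its mean ± SD (n = 2). Neurod6 was highest at 94.1 ± 4.77 and Neurog2 lowest at 0.97 ± 0.11, a 97.1-fold range of means. The 4 neuronal bHLH genes Neurod1, Neurod2, Neurod6 and Bhlhe22 together held 73.3% and 72.1% of the summed TPM of the 9 genes. Because this was bulk tissue, fewer cells that express a gene and less RNA per cell cannot be told apart.

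The bHLH members are relatives, and their coding sequences show how close. Shown here are the 60 coding bases of Neurod1 that had the most identical bases in the best-matching stretches of the other 4, summed. They lie in the part that encodes the DNA-contacting basic region and the first helix. Capitals mark the 31 bases that were the same in all 5 genes.
Neurod1: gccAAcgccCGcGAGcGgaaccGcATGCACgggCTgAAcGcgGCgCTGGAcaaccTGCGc
Neurod2: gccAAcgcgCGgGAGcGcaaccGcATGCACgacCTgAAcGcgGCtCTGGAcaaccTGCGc
Neurod6: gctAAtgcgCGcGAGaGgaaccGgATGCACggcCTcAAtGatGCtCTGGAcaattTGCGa
Neurog2: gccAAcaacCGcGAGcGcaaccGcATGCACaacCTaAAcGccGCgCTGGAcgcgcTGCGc
Bhlhe22: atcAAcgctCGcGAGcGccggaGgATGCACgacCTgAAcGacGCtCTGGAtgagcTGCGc
Each is read 5′ to 3′ on the coding strand of the GENCODE M21 transcript on build mm10. In order, they lie at chr2:79454663-79454722 on the minus strand, chr11:98327899-98327958 on the minus strand, chr6:55679297-55679356 on the minus strand, chr3:127634077-127634136 on the plus strand and chr3:18055448-18055507 on the plus strand. Neurod1 and Neurod2 shared 54 of the 60 bases, the closest pair. Neurog2 was the same as Neurod1 at 49, Neurod6 at 46 and Bhlhe22 at 43. Neurod6 was the most distant from Neurog2 and from Bhlhe22, at 40 each.

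Tbr1 and Eomes are both T-box factors, whose DNA-binding domain is named for its founding member. Their best-matching 60 coding bases had 53 in common, marked by capitals.
Tbr1: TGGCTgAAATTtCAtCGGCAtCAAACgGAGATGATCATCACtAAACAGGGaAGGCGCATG
Eomes: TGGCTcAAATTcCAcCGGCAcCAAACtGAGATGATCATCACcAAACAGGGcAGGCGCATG
Both stretches cross an exon junction on the plus strand, within chr2:61805347-61805980 for Tbr1 and chr9:118479494-118480473 for Eomes.

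Exact matches to other genes, in which a read can be assigned to either gene, were then sought. No stretch of 31 bases was shared between any 2 of the 5 bHLH genes, or between Tbr1 and Eomes. Neurod2 and Tbr1 had 3 such stretches in common. Across all annotated transcripts on either strand, Bhlhe22, Igfbpl1 and Neurog2 shared no stretch of 31 bases with another gene, and Neurod6, Neurod2 and Tbr1 shared 0.426%, 0.515% and 0.238% of theirs. Hopx shared 26.2%, nearly all of it with the antisense gene Hopxos, and Neurod1 11.2%, most of it with the overlapping genes Cerkl and Gm26755. Eomes shared 2.59%, mainly with its antisense neighbour Gm33460.

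Counts of those overlapping genes were small beside the members. Hopxos held 12 and 14 expected counts, against 727 and 917 of Hopx. Cerkl, on the same strand as Neurod1 and spanning it whole, held 45 and 62.3, against 1340 and 1398. Gm26755 held 3 in each library and Gm33460 was listed at 0 in both. Whether reads were counted by strand is not stated, so the levels of Hopx, Neurod1 and Eomes are uncertain to the extent of these overlaps.

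Hopx encodes a small homeodomain protein that does not bind DNA by itself. It marks slowly dividing stem cells of the dentate gyrus and is also made by astrocytes. It stood at a TPM of 33.7 and 39.0, and its mean ranked 3053 from the top of 22015 nuclear protein-coding genes. The gene lies on the minus strand of chromosome 5, from 77086988 to 77115121 (ENSMUSG00000059325.14), and has 3 annotated transcripts that start at 2 places 19844 bases apart. Hopx-201 uses the far start, and Hopx-202 and Hopx-203 start 24 bases from each other near the body of the gene.

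Nearly all Hopx RNA was assigned to the near start. The near-start transcripts held 92.6% and 97.3% of the gene's TPM in the alignment-based table. In the table estimated directly from reads, called the read-based table, they held 90.5% and 94.8%. Hopx-201, from the far start, was at a TPM of 2.50 and 1.05 in the alignment-based table and 4.83 and 3.09 in the read-based table. It was lower in replicate 2 in both tables, a difference seen after the values were examined and given without a test.

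The tables gave the near-start RNA to different transcripts. The alignment-based table put 75.2% and 78.8% of the gene on Hopx-202 and 17.4% and 18.5% on Hopx-203. The read-based table put none on Hopx-202 and 90.5% and 94.8% on Hopx-203. Hopx-202 has 3 exons and Hopx-203 has 2, the first of which covers most of the first exon of Hopx-202, the intron after it and the second exon. The assignment to the near start thus held in both tables, which come from the same reads. The assignment between the near-start transcripts did not.

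**Figure D1:**
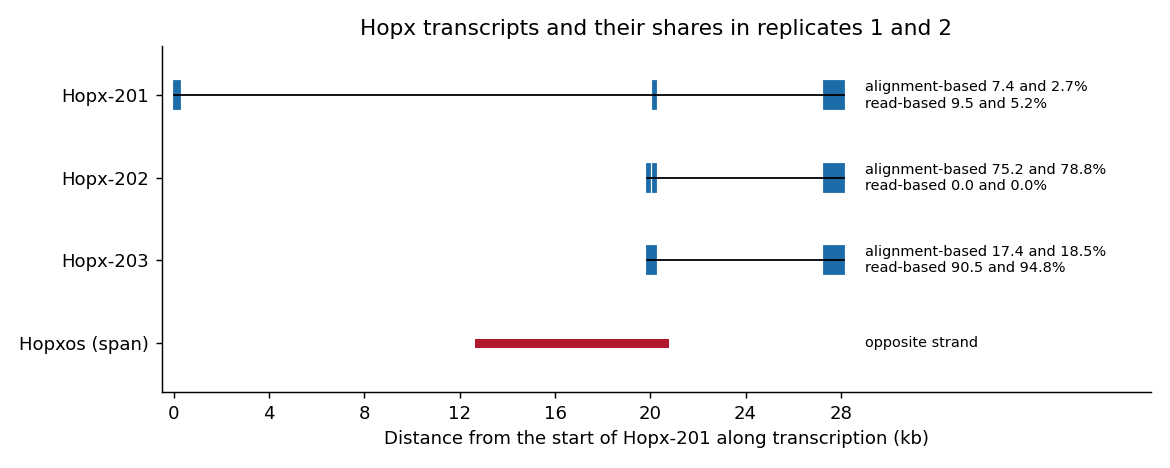
Annotated exons (blue boxes) of the 3 Hopx transcripts against distance from the start of Hopx-201 in kb, with each transcript's share of the gene's TPM in replicates 1 and 2 at the right and the span of the antisense gene Hopxos in red. The near-start transcripts Hopx-202 and Hopx-203 lie 19844 bases downstream and held 90.5% to 97.3% of the TPM together.

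The sequences before both starts are shown because the tables assigned such unequal shares of the TPM to them. Start use itself was not measured. They are the 250 bases before each RefSeq start on build GRCm38.p6, minus strand, written in the direction of transcription, with any E-box of the form CANNTG in capitals.
Hopx near start: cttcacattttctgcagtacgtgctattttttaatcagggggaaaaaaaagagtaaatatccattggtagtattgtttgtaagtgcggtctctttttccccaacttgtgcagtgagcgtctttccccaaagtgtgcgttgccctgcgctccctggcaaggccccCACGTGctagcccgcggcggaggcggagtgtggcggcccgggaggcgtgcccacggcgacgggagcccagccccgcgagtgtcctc
Hopx far start: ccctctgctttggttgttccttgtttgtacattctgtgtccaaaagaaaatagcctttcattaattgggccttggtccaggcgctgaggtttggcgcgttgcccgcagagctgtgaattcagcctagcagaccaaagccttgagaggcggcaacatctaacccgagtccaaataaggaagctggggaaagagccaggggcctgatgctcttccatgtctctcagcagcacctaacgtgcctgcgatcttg
The near window is chr5:77095268-77095517, before a RefSeq start 10 bases from that of Hopx-202. The far window is chr5:77115124-77115373, before a start 2 bases from that of Hopx-201. With the 50 bases after each start included, the near window held 21 CpG pairs and 59.0% G and C, and the far window 8 and 53.0%. The median over 32851 such windows of all genes was 7 CpG pairs and 52.7%.

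RefSeq promoter windows were matched for 7 of the 9 genes, and 6 motifs were searched on both strands of the 300 bases around each start. E-boxes of the form CANNTG, which take in the more specific forms below, were present in the windows of Hopx, Neurod1, Neurod2, Neurod6 and Tbr1 and in neither Eomes nor Neurog2. Of all windows, 72.3% held one. The form CATATG, one that Neurod factors bind, was found once each in Neurod1 and Neurod2 and in 3.92% of all windows. The form CAGATG was found once in Neurod2 and in 17.2% of all windows. The form CAGCTG was found once, after the far start of Hopx and so outside the bases printed, and in 16.3% of all windows. The T-box word AGGTGTGA, present in 1.28% of all windows, and the TATA word TATAAA, present in 13.6%, were found in none of the 7. These are matches of letters and not measured binding. Variants of the words were not searched, and the bases before the starts of Eomes, Neurod1 and Neurog2 do hold the related word TATATAA.

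The intermediate progenitor genes were the lowest of the 9. Eomes, also known as Tbr2, defines intermediate progenitors, and it stood at a TPM of 2.29 and 2.44 from 149 and 176 expected counts. Neurog2, which commits progenitors to the glutamatergic fate, stood at 1.05 and 0.89 from 46 and 43. Neurog2 was thus the single member below a TPM of 1 in a library. Their means ranked 11921 and 13280 among the 22015 nuclear protein-coding genes. Eomes exceeded Neurog2 by 1.21 ± 0.21 in log2 TPM, and the gap was in the same direction in both libraries. Eomes lies on chromosome 9 from 118478212 to 118486132 (ENSMUSG00000032446.14) and Neurog2 on chromosome 3 from 127633135 to 127635631 (ENSMUSG00000027967.8), both on the plus strand.

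Eomes-201 was the leading form of its gene. It held 66.4% and 72.5% of its TPM, Eomes-202 held 26.6% and 20.5%, and Eomes-203 held 6.99% and 6.97%. The read-based table had the same order, with Eomes-201 at 54.9% and 68.5%. With so few counts these shares are loose: Eomes-202 rested on 34.8 and 31.2 expected counts.

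Igfbpl1, a secreted relative of the insulin-like growth factor binding proteins that marks neuroblasts, stood above both progenitor genes in each library. It was at 25.4 and 26.6, from 1156 and 1467 expected counts (ENSMUSG00000035551.6, chromosome 4, 45809468 to 45826923, minus strand). The coding transcript Igfbpl1-201 held 73.3% and 84.1% of its TPM, or 92.1% and 95.8% of its counts. The rest was Igfbpl1-202, a short processed transcript without a coding annotation. TPM divides by length, which gives the short form more weight.

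Of the 4 neuronal bHLH genes, 3 headed the order of levels. Neurod6, made by postmitotic glutamatergic neurons, stood at 97.5 and 90.8, rank 924 of the nuclear protein-coding genes (ENSMUSG00000037984.9, chromosome 6, 55677822 to 55681263, minus strand). Neurod2, which supports the maturation and synapses of the same class of neurons, stood at 51.6 and 55.7 (ENSMUSG00000038255.6, chromosome 11, 98325415 to 98329648, minus strand). Bhlhe22, an Olig-related repressor of postmitotic projection neurons, stood at 53.3 and 52.9 (ENSMUSG00000025128.7, chromosome 3, 18054174 to 18057517, plus strand). Neurod1, which newborn granule cells need to survive and mature, was lower at 24.7 and 23.4 (ENSMUSG00000034701.9, chromosome 2, 79452521 to 79456751, minus strand). Within the Neurod family the order was Neurod6, Neurod2, Neurod1 in both libraries. All 4 have a single annotated transcript, in 1 exon for Bhlhe22 and 2 exons for the Neurod genes, as has Neurog2.

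Tbr1, a T-box factor of early-born glutamatergic neurons of the cortex and hippocampus, stood at 20.1 and 17.1 (ENSMUSG00000035033.15, chromosome 2, 61802930 to 61814114, plus strand). It exceeded its relative Eomes by 2.92 ± 0.23 in log2 TPM, or 7.56-fold. Tbr1-201 held 99.5% and 91.1% of its TPM in the alignment-based table, and 68.8% and 74.3% in the read-based table. The short forms varied between libraries and tables. Tbr1-202 held 0% and 8.08% of the alignment-based TPM, and Tbr1-203 held 27.3% and 6.42% of the read-based TPM and none in the other table. The non-coding form Tbr1-203 rested on 86.6 and 16.6 read-based counts.

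**Figure D2:**
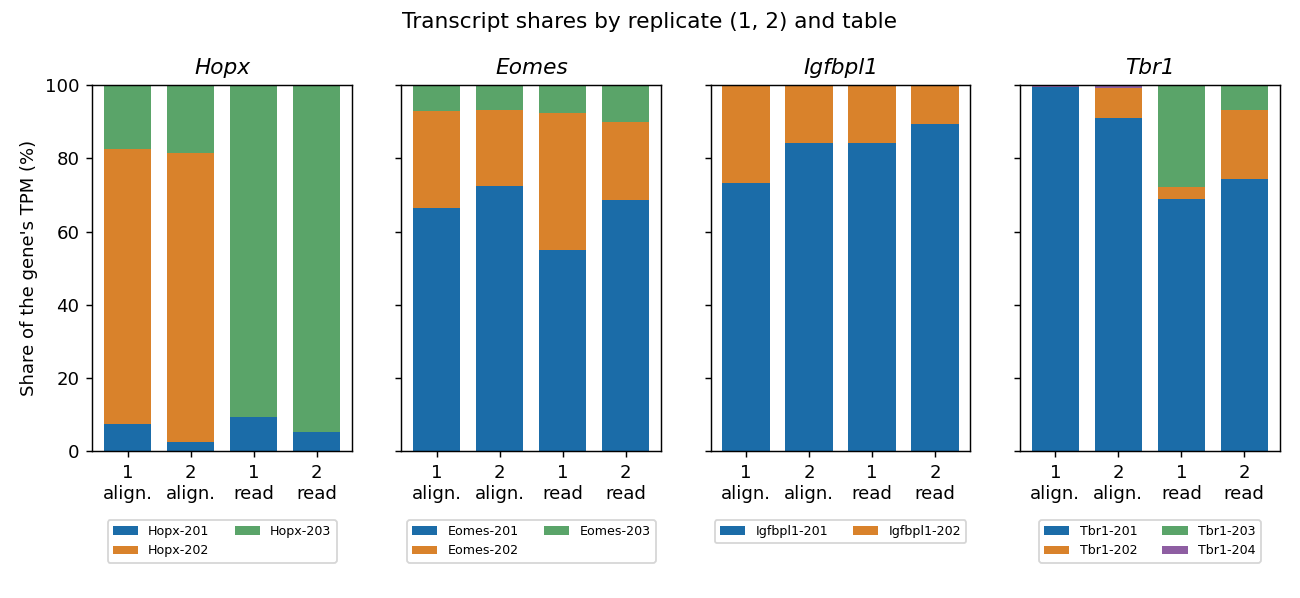
Share of each gene's TPM (vertical axis, percent) held by its annotated transcripts in replicates 1 and 2 of the alignment-based and read-based tables, for the 4 members with more than 1 transcript. The leading transcript was the same in both libraries for all 4, and the tables differed in it for Hopx alone.

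In order of mean TPM the genes were Neurod6, Neurod2, Bhlhe22, Hopx, Igfbpl1, Neurod1, Tbr1, Eomes and Neurog2. Neighbours counted as apart when both libraries gave their log2 ratio the same sign and its mean exceeded 2 SD, and 6 of the 8 neighbouring pairs were. With 2 libraries no exact test can pass 0.05, so this is a description. Neurod2 and Bhlhe22 were not apart, at 0.01 ± 0.09 in log2, and changed places between the libraries. Igfbpl1 and Neurod1 were not apart either, at 0.11 ± 0.10. The widest step was that from Tbr1 down to Eomes. Neurod6 exceeded Neurod2 by 0.81 ± 0.15, or 1.75-fold, and Hopx exceeded Igfbpl1 by 0.48 ± 0.10. Neurod1 exceeded Tbr1 by 0.37 ± 0.11 in the alignment-based table, but in the read-based table the mean was −0.03 and the pair was not apart.

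The read-based table gave higher TPM for all 9 genes. The ratio of read-based to alignment-based TPM had a median of 1.44 in replicate 1 and 1.48 in replicate 2, against 1.57 and 1.58 over 13309 and 13151 nuclear protein-coding genes at a TPM of 1 or more. Counts differed less, by 0.891 to 1.14 times. Tbr1 stood apart from the other 8, with TPM ratios of 2.04 and 1.79 where the others lay between 1.25 and 1.58. Its count ratios were 1.12 and 1.13. The short forms Tbr1-202 and Tbr1-203 each held a larger share of the read-based than of the alignment-based TPM, in both libraries.

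**Figure D3:**
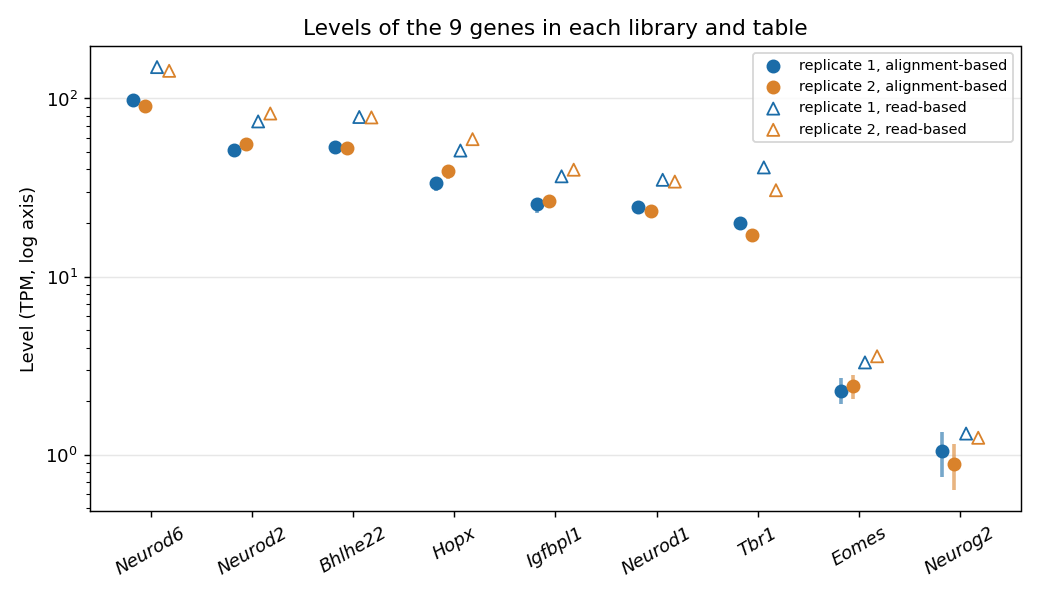
TPM on a log axis for each of the 9 genes, with circles for the alignment-based table, triangles for the read-based table, blue for replicate 1 and orange for replicate 2. Vertical lines are the posterior intervals deposited with the alignment-based values, whose level the files do not give and which need not enclose the plotted estimate. The libraries lie close together, and Eomes and Neurog2 stand below the other 7 genes.

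The replicate pools were then compared, which compares 2 libraries and no condition. None of the 9 genes was called different, and the shifts that stood out from counting error were small: Igfbpl1, Hopx and Neurod2 were somewhat higher in replicate 2 and Tbr1 lower. The test was an exact two-sided binomial test on rounded expected counts with Benjamini-Hochberg adjustment over 20544 genes, and log2 ratios are replicate 2 over replicate 1 after TMM scaling, which sets aside differences in library composition. A call needed an adjusted p under 0.05 and a log2 ratio of 1 or more in either direction, which 2.83% of the genes tested met (0.574% higher in replicate 2 and 2.26% higher in replicate 1) and 0 of the 9 members. In the read-based table the share was 3.01%, again with 0 of the 9. At the adjusted p alone the share was 27.1% of all genes and 5 of the 9 members, and the same 5 were those with an unadjusted p under 0.05. It was 29.7% of all genes and 5 of the 9 in the read-based table. With alignment-based counts, 4 of the 9 members passed that adjusted p and were higher in replicate 2, against 15.7% of all genes tested. Likewise 1 of the 9 members passed and was higher in replicate 1, against 11.5%. Among all genes that passed, 3216 of 5572 were higher in replicate 2, beside 4 of the 5 members that passed.

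Igfbpl1 had a log2 ratio of 0.31 ± 0.06 (counting SE), or 1.24-fold, at an adjusted p of 5.94e-07 by the exact binomial test. That ratio is of scaled counts, and the TPM of Igfbpl1 differed less, at 25.4 and 26.6. Its short form Igfbpl1-202 held 26.7% and 15.9% of that TPM. The short form fell from 6.78 to 4.23, while the coding form Igfbpl1-201 rose from 18.65 to 22.41. The part of scaling in the gap between ratio and TPM was not tested. Hopx had 0.30 ± 0.07 at an adjusted p of 0.00023, and Neurod2 0.21 ± 0.03 at 1.54e-08 by the same exact test. Bhlhe22 had 0.09 ± 0.03, at an exact adjusted p of 0.0345. Its TPM went the other way, at 53.31 in replicate 1 and 52.85 in replicate 2. With total counts in place of TMM scaling its log2 ratio was 0.0099. The place of Bhlhe22 among the members higher in replicate 2 therefore depends on the scaling. The TPM of Neurod6 fell from 97.51 to 90.77, where its TMM-scaled log2 ratio was −0.0031. Tbr1 was 1.16-fold higher in replicate 1, with a log2 ratio of −0.22 ± 0.05 and an exact adjusted p of 0.00029. The remaining 4 had adjusted p-values from 0.385 to 0.986. For Eomes the ratio of 0.21 had a 95% counting interval of −0.12 to 0.53, and for Neurog2 −0.13 had one of −0.77 to 0.50.

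The deposited intervals of the libraries overlapped for 5 members, namely Bhlhe22, Igfbpl1, Neurod1, Eomes and Neurog2. The binomial test knows counting error alone. Taking both libraries as replicates gave a common biological coefficient of variation of 11.1% (17903 genes). At that dispersion edgeR's exact test gave an adjusted p of 1 for every member, and 0 of the 9 had an unadjusted p under 0.05. By that test 0.886% of all genes had an adjusted p under 0.05. The dispersion came from the same 2 libraries, so the differences tested are part of it. The test therefore leans toward no difference, and a gene that does not pass it is not shown to be alike in both pools. All 9 members were within 1.5-fold, as were 98.3% of 12072 nuclear protein-coding genes with 200 or more counts. The median absolute log2 ratio was 0.21 over the members and 0.12 over those genes. Scaling to spike-ins moved the median of the same protein-coding genes from 0.04 to −0.25, and with it Neurod2 to −0.07 and Bhlhe22 to −0.20. Under that scaling Hopx was at 0.02 and Igfbpl1 at 0.03, while Tbr1 was at −0.50. Directions of the members are therefore relative to the bulk of genes.

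**Figure D4:**
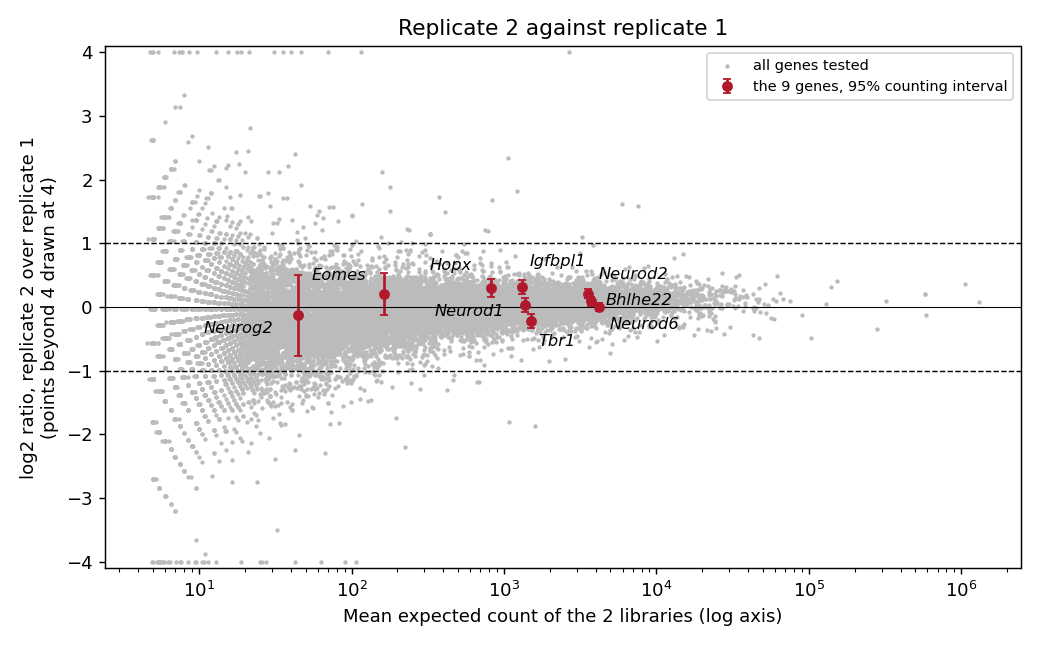
Log2 ratio of replicate 2 over replicate 1 (vertical axis) against mean expected count (log axis) for all 20544 genes tested in grey and the 9 members in red with 95% counting intervals. Dashed lines mark a log2 ratio of 1 in each direction. Every member lies between −0.22 and 0.31, inside the dashed lines.

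Other genes of the same steps give the setting of these levels. These lists, like the members, were chosen with earlier results of these data known, and no member or list was tested as a set. Stem cell and radial glia genes had a median TPM of 10.8 in both libraries, with 13 of 14 at a TPM of 1 or more in both. They were led by Fabp7, a fatty acid carrier of radial glia, at 278 and 210, followed by Vim, Lhx2 and Hes5. In bulk tissue these levels cannot be assigned to stem cells rather than astrocytes, whose genes had medians of 97.5 and 100. At the adjusted p alone 4 of 14 were higher in replicate 2 and 4 in replicate 1, against 15.7% and 11.5% of all genes tested. The proneural cascade list had medians of 5.04 and 3.56 with 12 of 15 detected. Its highest members were Sox4 at 33.0 and 32.8, Sox11 at 29.9 and 23.4, Myt1 and Hes6. Neurog1, the sister of Neurog2, held 1 and 2 counts.

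Genes of immature granule cells had medians of 53.2 and 49.1 with 10 of 10 detected, led by Stmn1, Tubb3, Ncam1 and Dcx. These 4 are also made by other young neurons. Dcx stood at 69.1 and 47.7 with a log2 ratio of −0.39, where the neuroblast gene Igfbpl1 had one of 0.31. Of the 10, 7 were higher in replicate 1 at the adjusted p alone and 2 in replicate 2, and none was called. Cycling genes had medians of 4.17 and 2.96, with 4 of 10 higher in replicate 1 and none in replicate 2. Dentate granule cell genes had medians of 11.7 and 16.7, with 6 of 10 higher in replicate 2 and none in replicate 1, and were led by Prox1 at 39.9 and 44.9. Prox1 is in both granule cell lists and is 1 of the 2 immature granule cell genes that were higher in replicate 2. No gene of the cycling or dentate granule list was called. These counts rest on counting error, and the shares over all genes tested were 15.7% higher in replicate 2 and 11.5% in replicate 1. With edgeR's exact test no immature granule cell or cycling gene had an adjusted p under 0.05, and 0 and 1 had an unadjusted p under 0.05, while 1 of the 10 dentate granule genes passed, C1ql2, named after its values were seen.

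Among E proteins and their inhibitors 10 of 10 genes were detected, with medians of 22.8 and 25.5, below those of the members. Of the E protein genes, the dimer partners of the bHLH members, Tcf4 stood at 320 and 257, above every member. Tcf12 at 25.1 and 28.5 and Tcf3 at 18.8 and 17.1 stood below Neurod6, Neurod2 and Bhlhe22. The inhibitor genes Id2 and Id3 were at 45.7 and 51.4 and at 44.2 and 50.6. Other bHLH relatives were mostly absent or low, with 6 of 16 detected in both libraries. Olig1 led them at 76.1 and 85.6, above every member but Neurod6. Bhlhe40, Olig2 and Bhlhe41 came next, and Neurog3, Atoh1, Ptf1a and Olig3 were listed at 0 in both. Of the 14 T-box relatives 5 were detected, and Mga, at 28.2 and 23.3, was the single one above a TPM of 2. Tbr1, with its mean of 18.6, stood above every T-box relative but Mga.

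**Figure D5:**
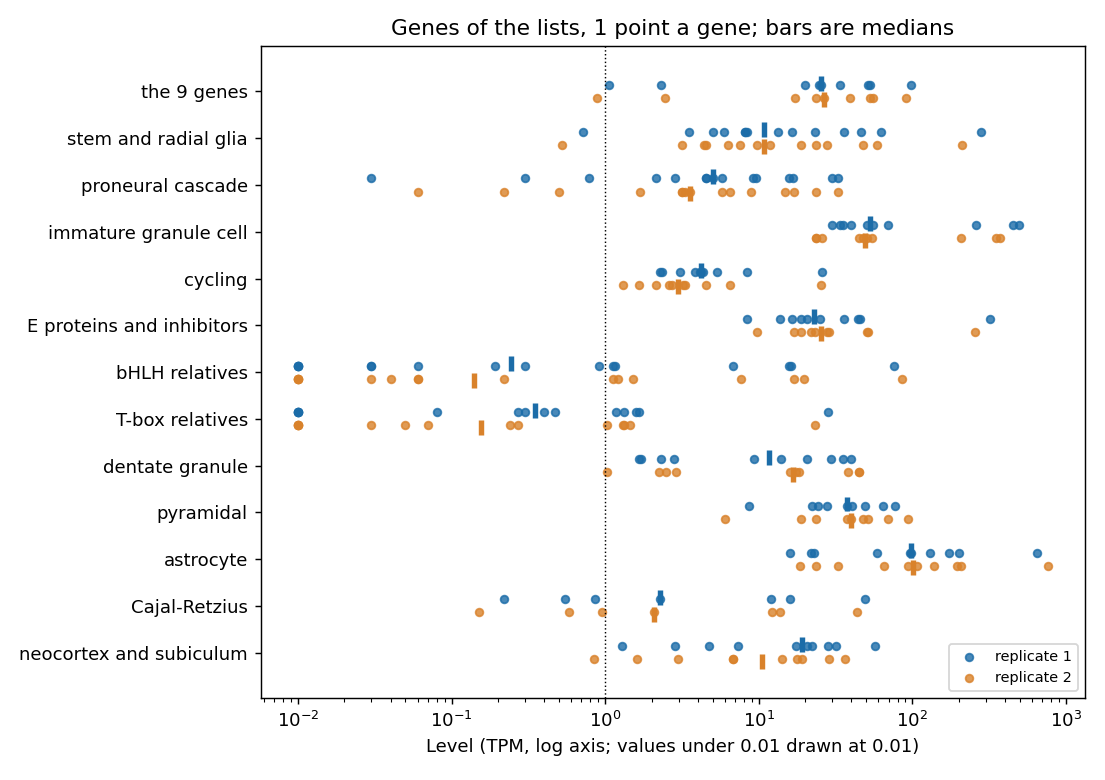
TPM on a log axis of each gene (1 point a gene) of the 9 members and of lists beside them, with replicate 1 in blue above replicate 2 in orange and short bars at the list medians. The dotted line is a TPM of 1. The medians of the 9 genes, 25.4 and 26.6, lie between those of the proneural cascade list and those of the immature granule cell list. So do those of the stem and radial glia, dentate granule, E protein, pyramidal, and neocortex and subiculum lists. The place of a median therefore gives no order of stages.

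Several members are also made by cells outside the dentate lineage. Astrocyte genes, which bear on Hopx, had medians of 97.5 and 100 with 10 of 10 detected, and 8 of 10 were higher in replicate 2 at the adjusted p alone and none in replicate 1, as Hopx was. Their summed TPM was 1464 and 1643. Genes of neighbouring neocortex and subiculum, which bear on Tbr1, had medians of 19.1 and 10.5, a sum of 194 and 135, and 9 of 10 detected. Of these, 5 of 10 were higher in replicate 1 and none in replicate 2, as Tbr1 was, and Tshz2 and Foxp2 were called. Tshz2 stood at 28.4 and 6.79, and was the single gene of the list at an adjusted p under 0.05 with edgeR's exact test. No astrocyte or pyramidal cell gene passed that test, and 1 and 4 had an unadjusted p under 0.05. Cajal-Retzius genes, which bear on Eomes and Tbr1, had medians of 2.27 and 2.08 with 4 of 7 detected, led by Reln at 49.1 and 43.6, Ndnf at 16.0 and 13.7 and Cacna2d2 at 11.9 and 12.3. Interneurons also make Reln and Ndnf. The factors Trp73, Lhx1 and Lhx5 were at 2.27 and 2.08, 0.55 and 0.58, and 0.22 and 0.15. None of the 7 reached an adjusted p of 0.05. Pyramidal cell genes, which bear on Neurod2 and Neurod6, had medians of 37.5 and 39.6 with 9 of 9 detected. Of these 9, 4 were higher in replicate 2 and 2 in replicate 1. Over all genes tested, 15.7% were higher in replicate 2 at the adjusted p alone and 11.5% in replicate 1. The part of these cells in the levels of the members was not tested.

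Of the other cell types, interneuron genes were 10 of 10 detected with medians of 18.7 and 20.9, oligodendrocyte precursor genes 7 of 7 with 16.7 and 17.0, microglial genes 6 of 6 with 13.9 and 15.4, and endothelial genes 5 of 5 with 12.7 and 11.5. Choroid plexus and ependymal genes were 6 of 6 detected with medians of 5.45 and 5.12, and thalamus and habenula genes 5 of 6 with 7.66 and 4.48. The choroid plexus gene Ttr stood at 422 and 670, with a log2 ratio of 0.77, and took the sum of its list from 447 to 693. At the adjusted p alone, 7, 5, 3, 2 and 1 genes of the first 5 of these lists were higher in replicate 2 and none in replicate 1, the direction of Hopx, Igfbpl1 and Neurod2. In the thalamus and habenula list 4 were higher in replicate 1, the direction of Tbr1, and none in replicate 2. The shares over all genes tested were 15.7% higher in replicate 2 and 11.5% in replicate 1. Pvalb, an interneuron gene, was called higher in replicate 2 at 3.00 and 7.54, and Gbx2, a thalamus gene, higher in replicate 1 at 0.24 and 0.04. Gbx2 rested on 10 and 1 expected counts. With edgeR's exact test 1 interneuron gene, Pvalb, and 9 of the 10 myelin genes had an adjusted p under 0.05. So did 1 thalamus and habenula gene, which was Slc17a6 and not Gbx2. None passed in the oligodendrocyte precursor, microglial, endothelial and choroid plexus lists, where 0, 1, 0 and 1 had an unadjusted p under 0.05. The part of these cell types was not tested either. Myelin genes of mature oligodendrocytes differed between the pools, with medians of 8.90 and 35.5 and all 10 called higher in replicate 2, while the precursor factors Olig1 and Olig2, bHLH relatives of Bhlhe22, had log2 ratios of 0.27 and 0.21 and were not called.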

How the data were processed

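Gene and transcript tables (alignment-based) and a second transcript table (read-based) were deposited for each library, on build mm10 and annotation M21 per the file headers and notes. No program is stated. Deposited expected counts carry no normalization and were rounded for testing. Deposited TPM is scaled over all entries, spike-ins included. Deposited FPKM, the deposited percent of each gene held by a transcript, and the deposited interval bounds, a signal on the TPM scale, were read as well. FPKM and that percent were not printed, and transcript shares were computed from TPM. Depth was 29858328 and 32275110 expected counts, with 0.341% and 0.393% in spike-ins. The 26248 numbered entries, with 3 and 4 counts, were left out.

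The members and lists were chosen with earlier results of these data known. Named were the 9 members, up to 4 genes of each list by mean TPM, and genes overlapping a member. Tcf12, Tcf3, C1ql2, Prox1, Tshz2, Foxp2, Pvalb, Gbx2, Neurog1, the Cajal-Retzius genes Lhx1 and Lhx5 and the genes listed at 0 were named after their values were seen where outside that rule. Genes with 10 or more counts over both libraries were tested by an exact binomial test at TMM effective sizes, with 0.5 counts added for ratios and 0.1 TPM for pairs. Nothing says how the pools were bred or dissected. The binomial p-values set the difference between these 2 libraries against counting error alone, and measure no spread between pools or animals. Intervals cover counting error alone. R 4.3.3, edgeR 4.0.16, DESeq2 1.42.0 (size factors), Python 3.11.15 and scipy 1.17.1 were used. On simulated counts with 20591 genes tested, the exact test called 100 of 100 genes changed 4-fold, 100 of 100 changed 2.83-fold and 5 unchanged genes of 20391. The simulated counts held counting error alone, and the changed genes were drawn from those with 200 or more counts. The simulation therefore cannot show how the test behaves under variation between libraries, or how well it finds changes at lower counts. Shared stretches were counted as 31-mers of M21 transcripts. Signal tracks, alignments and protein sequences were not used here.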

Additional observations from a re-analysis of the deposited data

How the results depend on the processing

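Of the 582 genes called between the libraries, 20.3% were higher in replicate 2. The count was 586 with median-of-ratios size factors, 666 with total counts, 562 without the filter and 694 in the read-based table. It moved to 1276 with spike-in scaling (6.90% higher in replicate 2), to 166 with edgeR's exact test at the common dispersion (39.2%) and to 198 among nuclear protein-coding genes alone (37.9%), an alternative chosen after seeing the data. No member was called in any of these. The 5 members at an adjusted p under 0.05 became 4 with spike-in scaling, and the set changed. Those 4 were Neurod6 at −0.29, Neurod1, Bhlhe22 and Tbr1, all lower in replicate 2. Neurod2, Hopx and Igfbpl1 no longer passed. With total counts 5 passed, with Neurod6 in place of Bhlhe22. In that setting Neurod6 was at −0.0811, higher in replicate 1, and Bhlhe22 at 0.0099. With edgeR's exact test 0 passed. That test adds variation between libraries, estimated from these same 2, to counting error. Log2 ratios changed sign as follows. With spike-in scaling Neurod2 was at −0.0729, Bhlhe22 at −0.20, Neurod1 at −0.26 and Eomes at −0.0773. With total counts Neurod1 was at −0.0504. Neurod6 was at 0.0073 with median-of-ratios factors and 0.0509 in the read-based table, where Neurog2 was at 0.0412. The median member TPM of 26.0 was 40.4 in the read-based table and 58.1 when nuclear protein-coding genes were rescaled to the same total, and 25.4 to 26.6 when a replicate was left out. Neurod1 over Tbr1 changed sign in the read-based table, at −0.0349, and the cause was not tested. Comparison of the libraries cannot be made without either replicate. The protein comparison was not run. Depth limits Neurog2 and Eomes, the members with the fewest counts.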
